A study of Mus musculus with 15 samples.

Results

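The genes described here are 37 genes of the cell division cycle, listed by symbol: 10 of DNA replication, 24 of mitosis, the G1 cyclins Ccnd1 and Ccne1, and Stmn1, which encodes a tubulin-binding protein. An expression array probe carried the symbol of 35 of them. No probe on the array was named for Ccnb1, a mitotic cyclin, or for Mki67, the gene of the proliferation marker Ki-67. A gene was tested where a probe had a detection p-value under 0.01 in 2 or more samples, that is, a signal above that of negative control probes. This held for 29 of the 37 genes, among the 11648 genes tested in all: 10 of 10 replication genes, 16 of 24 mitosis genes, both G1 cyclins and Stmn1. The probes of 6 other mitosis genes, Ccna2, Ccnb2, Bub1, Ube2c, Kif20a and Cks2, reached that signal in fewer than 2 samples. Some of the 29 passed because of the groups in which they are high, so their counts describe the measured genes and not all 37.

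A cell that leaves the resting state passes through G1, copies its DNA in S phase and separates the copies in mitosis. Cyclin D1 and cyclin E1 act in G1. Mcm2 to Mcm7 form the helicase that unwinds the DNA, Pcna is the sliding clamp of the DNA polymerases, and Rrm1, Rrm2 and Tyms make the deoxynucleotides. Cdk1 is the kinase that drives entry into mitosis, and the other mitosis genes build the spindle, the kinetochore and the cleavage furrow or control the separation of the chromosomes. Most cells of a healthy adult lung or kidney do not divide, and injury is known to bring resident and recruited cells back into the cycle.

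The study measured total RNA of whole lungs and kidneys of BALB/c mice on Illumina arrays. The 5 groups were healthy lung (3 mice), lung labelled fibrotic after bleomycin given into the trachea (3 mice, here bleomycin lung), lung of mice whose kidney was made fibrotic by unilateral ureteral obstruction (3 mice, here lung of obstructed mice), healthy kidney (3 mice) and kidney labelled fibrotic after that obstruction (2 mice, here obstructed kidney). Bleomycin is a drug that breaks DNA and is widely used to scar the rodent lung, and ureteral obstruction ties off the outflow of a kidney. The labels give no time after injury, age or sex. The same 3 mice gave the healthy lungs and the healthy kidneys, and 1 obstructed mouse gave both organs. In the second lung of obstructed mice, 2 arrays were averaged. All values below are log2 intensities after background correction and quantile normalization, and a difference of 1 on this scale is a ratio of 2. Differences are given with their standard errors and p-values adjusted over all tested genes (limma, Benjamini-Hochberg, threshold 0.05), and the p-values rest on the spread between mice pooled over the 5 groups.

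The 15 arrays had median raw signals from 95.2 to 125.1 and a signal above background for 32.4% to 41.5% of probes. Some samples carried transcripts that their label does not explain. Liver transcripts (7 measured genes) reached a summed linear intensity of 73337 in 1 healthy lung and 25591 in 1 lung of obstructed mice. They summed to 21520 to 27129 in the healthy kidneys and to 2016 to 3768 in the obstructed kidneys, with Cyp2e1 the brightest. Apoa2 was at 10.04, 8.94 and 7.99 in healthy kidneys and at 6.15 and 4.80 in obstructed kidneys. The airway gene Scgb1a1 was at 12.35 and 11.23 in the obstructed kidneys, against 4.36 to 4.49 in healthy kidneys, and the kidney gene Umod was at 9.07 in 1 bleomycin lung. Xist, which is expressed from the inactive X chromosome of females, was at background in every healthy lung and kidney. It was at 11.24 to 11.70 in lungs of obstructed mice and at 10.72 and 10.44 in the obstructed kidneys, where the Y-linked genes Eif2s3y, Kdm5d and Uty were at background. In bleomycin lungs Eif2s3y was at 9.66 and 9.65 in the first and the second and at 4.42 in the third, whereas Xist was at 5.52, 4.35 and 8.91, above background in the first and the third. Obstruction and this pattern therefore cannot be told apart, in either organ, and the bleomycin comparison is also given without the third lung.

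Promoter sequences were looked up for the genes, because replication and mitosis genes are known to be switched on through different elements. CCAAT boxes bind the factor NF-Y, the cell cycle homology region (CHR) binds the MuvB complexes that time mitotic genes, and E2F sites time many genes of the G1 and S phases. RefSeq windows (GRCm38.p6) of 300 bases, from 250 before to 50 after the gene start, were found for 30 of the 37 genes. Both strands were searched for CCAAT, for the CHR letters TTTGAA or TTCGAA, and for the E2F letters TTTCCCGC or TTTCGCGC or TTTGCCGC or TTTGGCGC. A CCAAT box was found in 8 of 9 replication genes and 18 of 20 mitosis genes with a window, and in 41.1% of the 27025 genes in the table. The CHR letters were found in 2 of 9 replication genes, in 16 of 20 mitosis genes and in 21.7% of all genes. The E2F letters were found in 4 of 9 replication genes, in 1 of 20 mitosis genes and in 2.6% of all genes. Different motifs overlapped each other in 2 windows, 1 of Cdca8 and 1 of Mcm7. A match is a description of these letters only.

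The windows of 3 mitosis genes and 3 replication genes whose levels are given in full below are shown with every match in capitals, 5′ to 3′ on the strand of the gene. They are Cdk1 (chr10:69352863-69353162, minus strand), Aurka (chr2:172370521-172370820, minus strand), Cdca8 (chr4:124936868-124937167, minus strand), Mcm6 (chr1:128359656-128359955, minus strand), Mcm5 (chr8:75109259-75109558, plus strand) and Tyms (chr5:30073576-30073875, minus strand).
Cdk1: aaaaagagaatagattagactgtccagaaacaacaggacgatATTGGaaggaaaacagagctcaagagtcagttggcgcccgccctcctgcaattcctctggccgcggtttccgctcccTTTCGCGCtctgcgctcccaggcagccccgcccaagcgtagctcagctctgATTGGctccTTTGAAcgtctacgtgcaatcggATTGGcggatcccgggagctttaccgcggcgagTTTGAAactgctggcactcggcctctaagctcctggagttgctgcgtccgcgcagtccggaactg
Aurka: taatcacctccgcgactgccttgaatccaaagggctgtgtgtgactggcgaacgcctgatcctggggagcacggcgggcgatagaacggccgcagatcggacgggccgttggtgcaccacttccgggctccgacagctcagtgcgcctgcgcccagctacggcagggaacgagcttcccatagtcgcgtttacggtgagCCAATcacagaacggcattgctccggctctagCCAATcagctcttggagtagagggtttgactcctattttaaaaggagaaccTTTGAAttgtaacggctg
Cdca8: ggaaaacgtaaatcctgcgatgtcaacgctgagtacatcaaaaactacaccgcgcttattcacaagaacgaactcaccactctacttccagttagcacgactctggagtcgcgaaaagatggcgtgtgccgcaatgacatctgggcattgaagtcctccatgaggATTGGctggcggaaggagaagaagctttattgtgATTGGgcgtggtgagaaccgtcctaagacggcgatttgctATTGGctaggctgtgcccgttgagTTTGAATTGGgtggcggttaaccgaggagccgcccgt
Mcm6: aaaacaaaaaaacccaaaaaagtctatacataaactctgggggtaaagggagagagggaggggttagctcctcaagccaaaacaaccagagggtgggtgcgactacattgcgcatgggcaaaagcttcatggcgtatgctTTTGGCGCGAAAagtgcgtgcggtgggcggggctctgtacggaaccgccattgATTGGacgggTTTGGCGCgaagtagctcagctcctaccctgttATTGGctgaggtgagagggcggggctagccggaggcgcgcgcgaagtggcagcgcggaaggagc
Mcm5: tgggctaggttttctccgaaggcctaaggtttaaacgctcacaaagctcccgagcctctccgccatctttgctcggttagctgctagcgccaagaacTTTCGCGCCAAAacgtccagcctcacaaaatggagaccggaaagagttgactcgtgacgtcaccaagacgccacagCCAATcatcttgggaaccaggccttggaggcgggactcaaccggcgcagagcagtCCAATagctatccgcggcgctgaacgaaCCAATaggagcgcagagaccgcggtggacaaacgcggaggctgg
Tyms: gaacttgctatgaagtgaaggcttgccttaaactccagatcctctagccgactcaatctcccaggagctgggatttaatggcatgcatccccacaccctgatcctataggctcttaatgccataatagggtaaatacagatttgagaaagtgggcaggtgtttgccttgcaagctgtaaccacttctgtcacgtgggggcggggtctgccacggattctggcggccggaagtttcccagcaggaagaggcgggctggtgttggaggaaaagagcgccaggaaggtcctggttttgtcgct
In Cdk1 the capitals hold 3 CCAAT boxes, 2 CHR matches beginning 71 and 15 bases before the start, and an E2F match 131 bases before it. Aurka and Cdca8 each hold 1 CHR match, which begins 33 and 14 bases after the start, with 2 and 4 CCAAT boxes. Mcm6 and Mcm5 hold 3 and 2 E2F matches, some of which overlap on opposite strands, and no CHR match. The Tyms window holds none of these letters.

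Bleomycin lung was compared with healthy lung to see how the injury changed the cycle genes in the organ that received the drug. Of the 29 measured genes, 21 were higher, 1 was lower and 7 did not pass the test. The median difference was 1.32, against -0.04 over all genes. Among all tested genes 21.3% were higher and 21.8% were lower. Of the 25 cycle genes with a signal above background in at least 1 sample of both groups, 18 were higher and 1 was lower. Among all 10115 genes with such a signal, 2171 were higher and 2355 lower. In whole-organ RNA, more cells of a kind and more RNA per cell cannot be told apart, here and in the comparisons below.

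Mitosis genes moved most. In bleomycin lung 15 of 16 rose, with a median of 1.89, and all 16 were higher in every bleomycin lung than in any healthy lung. The share of all tested genes separated in this way was not counted, so this has no background to be read against. Cdk1 was at 5.35, 5.33 and 5.42 in the healthy lungs and at 8.39, 8.64 and 8.76 in the bleomycin lungs. That is a rise of 3.23 ± 0.33 (SE), or 9.39-fold (limma, adjusted p = 3.04e-05). Aurka, a kinase of the centrosome and spindle pole, was at 5.42, 5.58 and 5.41 in healthy lungs and at 7.89, 8.01 and 7.82 in bleomycin lungs, a rise of 2.43 ± 0.30 (adjusted p = 9.15e-05). Aurkb, the catalytic kinase of the chromosomal passenger complex, was at 5.09, 4.70 and 4.68 in healthy lungs and at 6.65, 6.90 and 6.71 in bleomycin lungs. It rose by 1.93 ± 0.22 (adjusted p = 5.48e-05), and its probe was above background in 0 of 3 healthy lungs. These 3 kinases are the mitosis genes with the smallest adjusted p in this comparison, so the distance between their groups follows from that choice.

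The partners of Aurkb in that complex rose with it, Birc5 (survivin) by 2.25 ± 0.30 and Cdca8 (borealin) by 1.99 ± 0.29. Top2a, which untangles sister chromatids, was at 5.11, 5.30 and 4.98 in healthy lungs and at 7.46, 7.46 and 7.25 in bleomycin lungs, a rise of 2.26 ± 0.28 (adjusted p = 9.17e-05). Genes of the spindle midzone and of the late cycle rose as well: Prc1, a microtubule crosslinker, by 2.39 ± 0.31, the chromosome-bound kinesin Kif22 by 1.86 ± 0.25, the spindle protein Nusap1 by 1.64 ± 0.30 and Cdca3 by 2.13 ± 0.27. Checkpoint and exit genes rose too, Plk1 by 1.64 ± 0.31, Bub1b by 1.32 ± 0.27 and Cdc20, an activator of the anaphase-promoting complex, by 1.33 ± 0.37. Cenpa, the histone of the centromere, rose by 1.03 ± 0.30. Tpx2, a spindle assembly factor, was at background in all healthy lungs and was at least 1.29-fold higher after bleomycin (adjusted p = 0.00456). The spindle motor gene Kif11 did not pass (0.31 ± 0.21, adjusted p = 0.254), and its probe was above background in 0 of 3 lungs of either group.

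**Figure D1:**
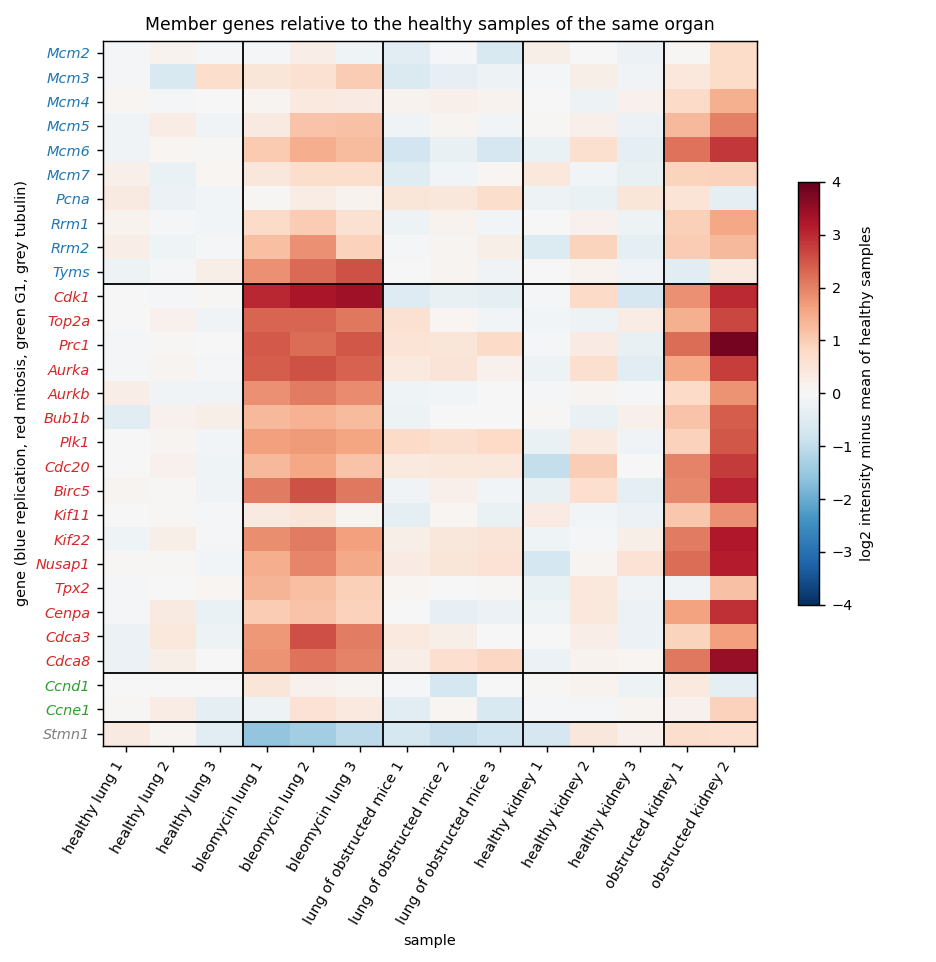
Log2 intensity of the 29 measured genes (rows, coloured by role) in the 14 samples (columns), each minus the mean of the healthy samples of the same organ, with red for higher and blue for lower. The bleomycin lungs and both obstructed kidneys are red in nearly all mitosis rows, whereas the lungs of obstructed mice are close to white.

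Replication genes rose less evenly. In bleomycin lung 6 of 10 passed, all upward, with a median of 0.75 over the 10. Tyms, thymidylate synthase, was at 6.42, 6.59 and 6.88 in healthy lungs and at 8.47, 8.91 and 9.19 in bleomycin lungs, a rise of 2.23 ± 0.23 (limma, adjusted p = 3.31e-05). Mcm6 was at 6.79, 7.0 and 6.96 against 7.96, 8.36 and 8.20, a rise of 1.26 ± 0.26 (adjusted p = 0.00222). Rrm1, the large subunit of ribonucleotide reductase, was at 8.29, 8.11 and 8.05 against 8.93, 9.16 and 8.76, a rise of 0.80 ± 0.18 (adjusted p = 0.00362). The values of these 3 genes do not overlap between the groups. They are the replication genes with the smallest adjusted p here, so the lack of overlap adds nothing to the test. Rrm2, the small subunit, whose probe was above background in 0 of 3 healthy lungs, rose by 1.32 ± 0.33, Mcm5 by 0.89 ± 0.25 and Mcm7 by 0.62 ± 0.21.

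The other helicase subunits did not pass: Mcm2 differed by 0.00 ± 0.21, Mcm3 by 0.71 ± 0.28 (adjusted p = 0.0561) and Mcm4 by 0.27 ± 0.17. The 95% interval of the Mcm2 difference ran from -0.45 to 0.46. Pcna, whose only probe was dim, was at 5.40, 4.80 and 4.94 in healthy lungs and at 5.10, 5.34 and 5.19 in bleomycin lungs, which overlap (0.16 ± 0.26, adjusted p = 0.632). The helicase subunits, which work as 1 complex, thus gave differences from 0.00 to 1.26 in the same lungs with the brightest probes. The other Mcm6 probe gave 1.49 and the other Mcm7 probe 0.46 (limma, adjusted p = 0.105).

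The G1 cyclins and Stmn1 behaved differently from the mitosis genes. Ccnd1 was at 12.29, 12.26 and 12.24 in healthy lungs and at 12.73, 12.45 and 12.39 in bleomycin lungs, a difference of 0.26 ± 0.22 that did not pass (adjusted p = 0.357). A dimmer Ccnd1 probe rose by 1.27 (adjusted p = 0.00294), and a further one gave 0.26 (adjusted p = 0.322), so the probes of this gene disagree. Ccne1 was at 5.01, 5.28 and 4.63 against 4.77, 5.56 and 5.37 and did not pass (0.26 ± 0.26, adjusted p = 0.45). Stmn1 was at 7.19, 6.92 and 6.37 in healthy lungs and at 5.25, 5.45 and 5.78 in bleomycin lungs. Its level fell by 1.33 (log2, SE 0.27, limma, adjusted p = 0.00217), the opposite direction to the genes of the spindle. Stmn1 had 1 probe, which was dim, with raw signals from 119.5 to 242.7 over all arrays, though above background in 3 of 3 lungs of either group.

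Leaving out lungs changed the calls of Mcm3, Mcm5, Mcm7 and Cenpa. With the liver-bearing healthy lung and lung of obstructed mice left out together, Cenpa was at 0.90 (adjusted p = 0.0527). Mcm5 was at 0.76 (adjusted p = 0.0503) without the second bleomycin lung. Mcm7 was at 0.49, 0.58 and 0.57 (adjusted p = 0.109, 0.0782 and 0.0763) without the second healthy, the second bleomycin or the third bleomycin lung, and Mcm3 passed at 1.06 without the third healthy lung (adjusted p = 0.00295). Without the third bleomycin lung, where Xist was highest and Eif2s3y lowest, 20 members were higher and 1 lower; the first, with a low Xist signal, was kept in that count. Where a called gene had further measured probes, 14 of 14 of them moved the same way, of which 12 also passed. With the deposited matrix values, in which the median of all genes was higher by 0.51, 28 members were higher and 1 lower.

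Cell type markers moved beside these genes. Sums on the linear scale follow the brightest genes of a list and are not levels of a cell type. In the lungs these were Lyz2 for macrophages, Cd8b1 for T cells, and Dcn and Pdgfra for fibroblasts. In bleomycin lung 7 of 10 macrophage and monocyte genes rose, with a summed linear intensity of 19133 to 32598 against 16671 to 17413, and Ccr2 was at background. Neutrophil genes summed to 10105 to 22442 against 2407 to 11963, with 0 of 6 passing. Fibroblast genes summed to 10090.5 to 13727 against 10095 to 13787, with 2 of 7 higher and 1 lower. Endothelial genes fell in 5 of 7 cases (7305 to 8322 against 13909 to 15522, Kdr at background), B and plasma cell genes in 2 of 2 (125 to 172 against 726 to 853), T cell genes in 3 of 4 (1186 to 1677 against 1753 to 2203) and red cell genes in 6 of 6 (928 to 1366 against 35341 to 35940, with Hbb-b2, Epor and Slc4a1 at background). The part of these shifts in the cycle genes was not tested.

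**Figure D2:**
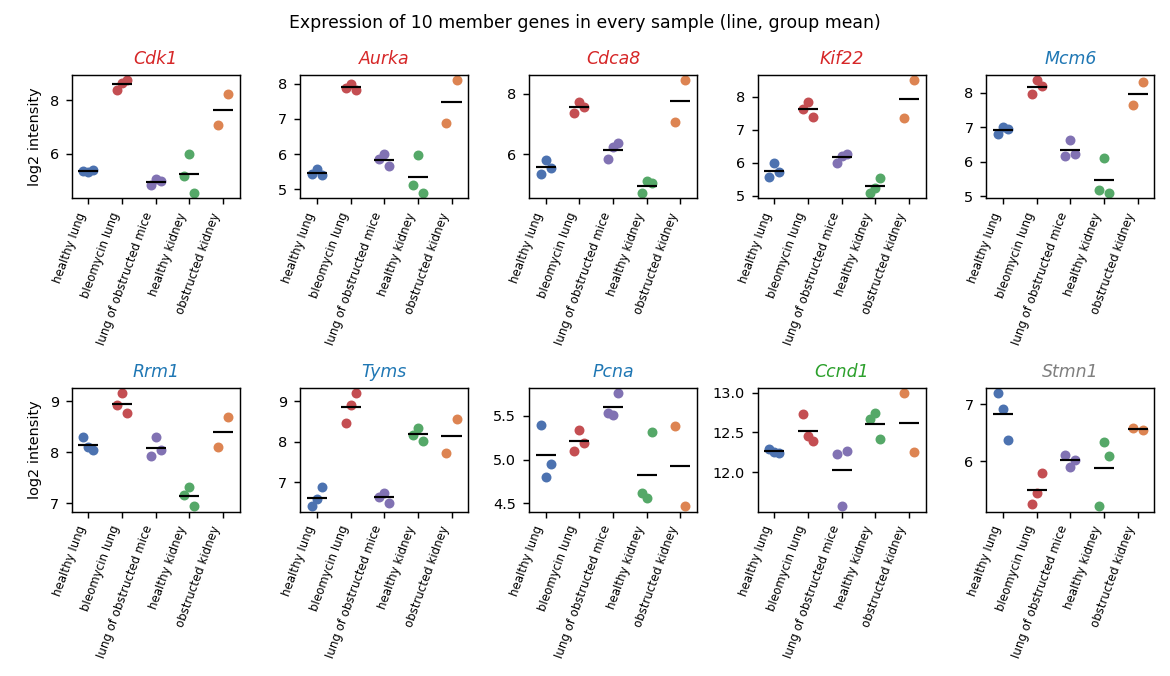
Log2 intensity (vertical axis) of 10 genes in every sample of the 5 groups (horizontal axis), with a line at each group mean and a title coloured by role. Cdk1, Aurka, Cdca8 and Kif22 are high in bleomycin lung and obstructed kidney, and Tyms is high in bleomycin lung and in both kidney groups. Stmn1 has its lowest group mean in bleomycin lung.

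The lung of obstructed mice was compared with healthy lung to see whether an injured kidney changed a lung that received no injury. None of the 29 genes passed in either direction with limma (0 higher, 0 lower). Among all tested genes 5.81% were higher and 5.05% were lower. At an unadjusted p under 0.05 (limma) 1 of the 29 was higher and 2 were lower, or 10.3%. Of all 11648 tested genes 1903 were higher and 1405 lower at that threshold, or 28.4%. The median over the 29 was -0.01, against 0.05 over all genes. Among mitosis genes, 7 were higher in every lung of obstructed mice than in any healthy lung, 1 was lower and 8 overlapped. The share of all tested genes separated in this way was not counted. Prc1 was among the 7, at 7.86, 7.78 and 8.08 against 7.25, 7.36 and 7.31 in healthy lungs. Cdk1 was the 1 that was lower, at 4.84, 5.06 and 5.0, and differed by -0.40 ± 0.33 (adjusted p = 0.466). Tyms was at 6.65, 6.75 and 6.49, within the range of the healthy lungs. The 95% interval of its difference ran from -0.50 to 0.50, which does not reach the rise seen after bleomycin.

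Plk1, a kinase of spindle assembly and mitotic exit, gave the largest positive difference of the list in this comparison (0.74 ± 0.31, adjusted p = 0.135), and Stmn1 the largest negative one (-0.82 ± 0.27, adjusted p = 0.0753). Mcm6 was at 6.16, 6.63 and 6.23, below every healthy lung (-0.58 ± 0.26, adjusted p = 0.168). Pcna was at 5.54, 5.51 and 5.76, above every healthy lung (0.55 ± 0.26, adjusted p = 0.179). Ccnd1 was at 12.23, 11.57 and 12.26 and Ccne1 at 4.56, 5.06 and 4.35, which overlap with healthy lung. Neutrophil genes summed to 3713 to 25075 against 2407 to 11963 in healthy lung, with 0 of 6 passing the test. Macrophage genes summed to 9237 to 14608 against 16671 to 17413, with 2 of 10 higher and 1 lower. That sum is mostly Lyz2, at 12.75, 13.40 and 13.04 against 13.81, 13.76 and 13.86 in healthy lung. Mrc1 was at 9.87, 10.60 and 10.06 against 9.43, 9.70 and 9.28, and 5 of the 10 genes differed upward.

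**Figure D3:**
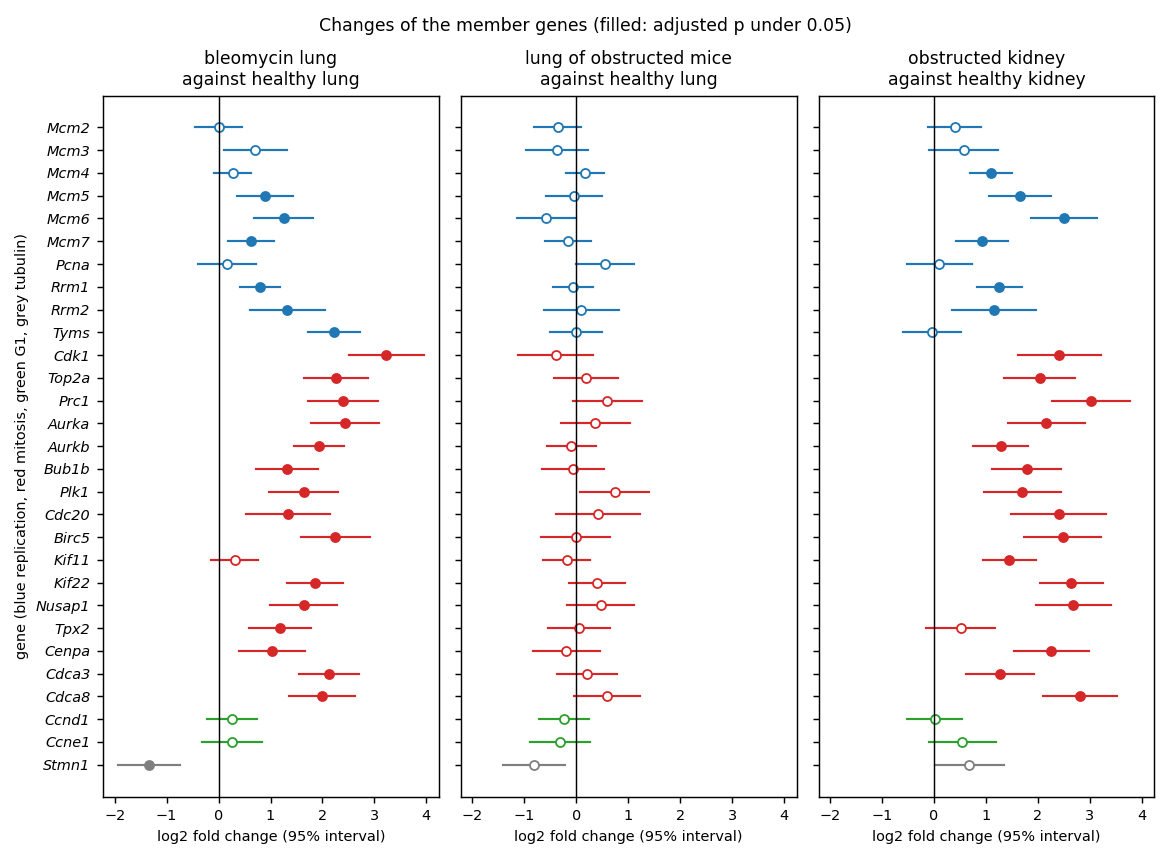
Log2 fold change (horizontal axis) of each measured gene with its 95% interval in bleomycin lung, lung of obstructed mice and obstructed kidney, each against healthy samples of the same organ, with filled points for an adjusted p under 0.05. In the outer panels 22 and 21 points are filled, nearly all to the right of 0, and in the middle panel none is.

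Obstructed kidney was compared with healthy kidney to see how the cycle genes changed in the organ that was blocked. Of the 29 measured genes 21 rose, 0 fell (also 0 at an unadjusted p under 0.05, limma) and 8 did not pass. The median was 1.45, against 0.12 over all genes. Among all tested genes 26% were higher and 16.9% were lower. At an unadjusted p under 0.05 (limma), 3584 of all 11648 tested genes were higher and 2352 lower. Of the 19 cycle genes with a signal above background in at least 1 sample of both groups, 15 were higher. Among all 8924 genes with such a signal, 2280 were higher and 1725 lower. Aurkb, Bub1b, Cdca8 and Kif11 were at background in all healthy kidneys, so their rises are bounds of at least 1.32-fold, 1.91-fold, 4.05-fold and 1.18-fold. The other probe of Cdca8 gave 0.65 (adjusted p = 0.071) and that of Bub1b 0.64 (adjusted p = 0.189), both under the bound of the brighter probe. Over all called genes with further measured probes, 13 of 13 such probes moved the same way and 10 passed.

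In this organ too 15 of 16 mitosis genes rose, with a median of 2.21. Kif22 was at 5.10, 5.23 and 5.52 in healthy kidneys and at 7.35 and 8.49 in obstructed kidneys, a difference of 2.64 ± 0.28 (limma, adjusted p = 2.05e-05). Its probe was above background in 0 of 3 healthy kidneys, so that the size rests on signals near background. Prc1 was at 6.42, 6.81 and 6.19 against 8.70 and 10.30, a rise of 3.02 ± 0.34, or 8.13-fold (adjusted p = 3.34e-05). Cdca8 was at 4.72, 5.10 and 5.05 against 7.08 and 8.45 (adjusted p = 3.68e-05). Kif22, Prc1 and Cdca8 are the mitosis genes with the smallest adjusted p here. That both obstructed kidneys lie above all healthy kidneys for them therefore adds nothing to the test. The obstructed kidneys lie further from each other than the healthy kidneys do.

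Cdk1 was at 5.16, 6.0 and 4.56 in healthy kidneys and at 7.08 and 8.22 in obstructed kidneys, a rise of 2.41 ± 0.37 (adjusted p = 0.000271). Top2a, also above background in 0 of 3 healthy kidneys, was at 4.85, 4.77 and 5.28 against 6.38 and 7.62 (2.04 ± 0.31). Aurka was at 5.11, 5.98 and 4.90 against 6.87 and 8.11, a rise of 2.16 ± 0.34. The healthy kidneys are more spread for Cdk1 and Aurka than for Top2a, but no obstructed kidney overlaps them for any of these genes. Nusap1 rose by 2.68 ± 0.33, Birc5 by 2.48 ± 0.34, Cdc20 by 2.40 ± 0.42, Cenpa by 2.26 ± 0.33, Plk1 by 1.70 ± 0.34 and Cdca3 by 1.27 ± 0.30. Tpx2 did not pass (0.51 ± 0.31, adjusted p = 0.199), since it was at 4.46 in the first and 5.77 in the second obstructed kidney and at background in the healthy ones.

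Replication genes passed in 6 of 10 cases, all upward, with a median of 1.01. Mcm6 was at 5.19, 6.11 and 5.11 in healthy kidneys and at 7.64 and 8.29 in obstructed kidneys, a rise of 2.50 ± 0.29, or 5.65-fold (limma, adjusted p = 3.84e-05). Mcm5 was at 7.43, 7.60 and 7.14 against 8.68 and 9.40, a rise of 1.65 ± 0.28 (adjusted p = 0.000517). Rrm1 was at 7.16, 7.32 and 6.95 against 8.10 and 8.69, a rise of 1.25 ± 0.20 (adjusted p = 0.000375). Mcm4 rose by 1.10 ± 0.19, Mcm7 by 0.92 ± 0.23 and Rrm2 by 1.15 ± 0.37, while Mcm2 (0.39 ± 0.23) and Mcm3 (0.57 ± 0.31) did not pass. With the brightest probes the helicase subunits therefore spread from 0.39 to 2.50 here, again with Mcm6 highest and Mcm2 lowest. The other Mcm6 probe gave 1.66 and the other Mcm7 probe 0.26 (limma, adjusted p = 0.428), so order and spread depend on the probe.

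Tyms did not pass in the kidney. It was at 8.18, 8.33 and 8.03 in healthy kidneys and at 7.71 and 8.56 in obstructed kidneys, a difference of -0.05 ± 0.26 (adjusted p = 0.913). The other kept Tyms probe rose by 0.63 (adjusted p = 0.0399), so the probes of this gene differ in the kidney, whereas both rose in bleomycin lung (the other one by 1.24). Pcna was at 4.62, 4.55 and 5.31 against 5.39 and 4.47 and did not pass (0.10 ± 0.29, adjusted p = 0.817). Ccnd1 was at 12.67, 12.75 and 12.41 against 12.99 and 12.25, and Ccne1 at 4.68, 4.66 and 4.85 against 4.90 and 5.64, with neither passing. Stmn1 was at 5.21, 6.34 and 6.09 against 6.58 and 6.54, a positive difference that did not pass (0.68 ± 0.31, adjusted p = 0.0922).

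The size of the rise differed between the obstructed mice. In the second obstructed kidney 16 of 16 mitosis genes were higher than in the first, by a median of 1.19, and 9 of 10 replication genes, by a median of 0.62, with Pcna the exception. Over all tested genes the median of this difference was -0.01, and 49.2% were higher in the second kidney. Healthy samples differed as well. In the second healthy kidney 12 of 16 mitosis genes were above the group mean, by a median of 0.30 over the 16. In the second healthy lung 14 of 16 were, by a median of 0.11. The median deviation of all tested genes was -0.0017 and 0.0083 in these samples, and the share of all genes above the mean was not counted. Among the bleomycin lungs the deviations were smaller than in the kidneys. The second lung was a median of 0.14 above the group mean of mitosis genes, with 15 of 16 above it, and the third was 0.09 below.

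**Figure D4:**
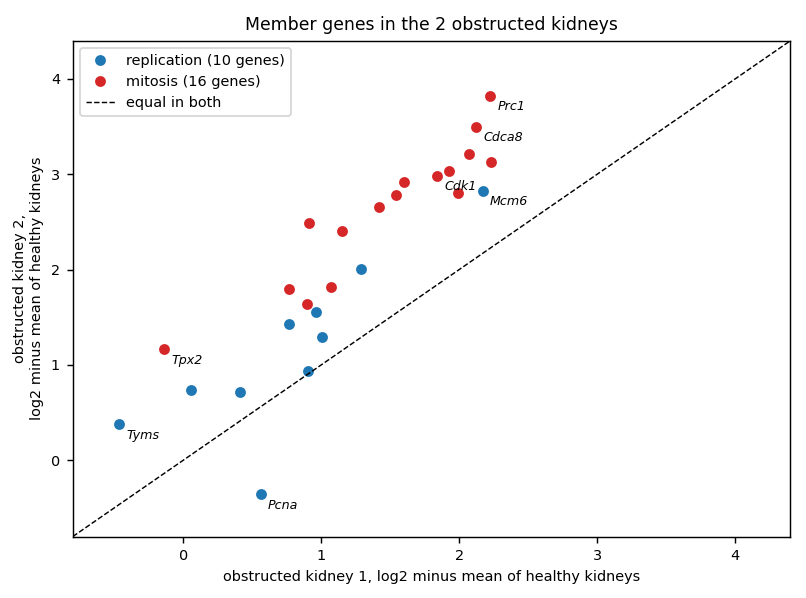
Log2 intensity of replication genes (blue) and mitosis genes (red) minus the mean of the healthy kidneys, in the first obstructed kidney (horizontal axis) against the second (vertical axis), with the dashed line marking equal values. All 16 mitosis genes lie above the line, and of the replication genes only Pcna lies below it.

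Without the first obstructed kidney, Mcm2 passed at 0.73 (adjusted p = 0.0388) and Tpx2 at 1.16 (adjusted p = 0.00282). Without the second, Cdca3 did not pass at 0.89 (adjusted p = 0.0705). The Rrm2 call was lost without either obstructed kidney (1.28 and 1.00, adjusted p = 0.0528 and 0.141) and without the first or the third healthy kidney (0.88 and 0.98, adjusted p = 0.0907 and 0.0798). Stmn1 passed at 0.92 (adjusted p = 0.0391) without the second healthy kidney.

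In the obstructed kidney 9 of 10 macrophage and monocyte genes rose, with a summed linear intensity of 8182 to 13798 against 1209 to 1509 in healthy kidney, where Trem2 and Ccr2 were at background. Fibroblast genes rose in 6 of 7 cases, from 1627 to 2727 up to 7216 to 10159.5, with Col1a2, Col3a1 and Lum at background in healthy kidney. Tubule and podocyte genes fell in 3 of 9 cases, from 91380.5 to 99734.5 down to 47891 to 65229. Neutrophil genes summed to 305 to 7627 against 226 to 407, with 1 of 6 higher. T cell genes rose in 2 of 4 cases, with Cd3e, Cd3d and Cd3g at background in healthy kidney. The part of these shifts in the cycle genes was not tested. Lung epithelium genes summed to 2973 to 6366 in the obstructed kidneys against 484 to 584 in healthy ones, with Sftpb, Sftpa1 and Lamp3 at background. Summed levels also differed between the obstructed kidneys. In the first and the second, neutrophil genes were at 305 and 7627, macrophage genes at 8182 and 13798, fibroblast genes at 7216 and 10159.5, tubule genes at 65229 and 47891, and lung epithelium genes at 6366 and 2973. The first 3 of these lists were higher in the second kidney, as the mitosis genes were, and the part of this in their order was not tested. Single bright genes weigh on such sums: among macrophage genes, Cd14 was at 9.71 and 12.60 but Lyz2 at 11.50 and 11.28. Both obstructed kidneys were above all 6 healthy and obstructed-mouse lungs for 13 of 16 mitosis genes and 5 of 10 replication genes. The other mitosis genes were Plk1, Tpx2 and Cenpa. The bleomycin lungs, where mitosis genes were also high, are not in this count, and the share of all tested genes was not counted. The part of the lung transcripts in the cycle genes of these kidneys was not tested.

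The injuries of lung and kidney raised largely the same measured genes. Of the 21 that rose in bleomycin lung and the 21 that rose in obstructed kidney, 19 were shared, 90.5% of either list. Over all tested genes 763 rose in both, which is 30.7% of those higher in bleomycin lung and 25.2% of those higher in obstructed kidney. These shares are no background for the 90.5%, because 21 of the 29 listed genes rose in each comparison. Of all tested genes only 21.3% rose in bleomycin lung and 26% in obstructed kidney. With so many of the listed genes called, a large overlap would arise even between unrelated calls. Whether 19 exceeds that was not tested. The healthy samples of these comparisons came from different organs of the same 3 mice. Kif11 and Mcm4 rose in the kidney and not past the threshold in the lung, and Tyms and Tpx2 the other way round.

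The difference between the effects was tested directly as the bleomycin effect in the lung minus the obstruction effect in the kidney. It passed for 6 of the 29 genes, 1 higher and 5 lower, against 17.9% higher and 27.1% lower among all tested genes. Tyms was the 1 with the larger effect in the lung, by 2.27 ± 0.35 (limma, adjusted p = 0.000284). Its other probe gave 0.61 (adjusted p = 0.119), so the difference in Tyms did not pass with both probes. Stmn1 was lower by 2.01 on this scale (SE 0.41, adjusted p = 0.00198), falling in the lung and not passing in the kidney. Mcm4 (-0.83 ± 0.25), Mcm6 (-1.24 ± 0.39) and Cenpa (-1.23 ± 0.44) had the larger rise in the kidney. The other Mcm6 probe gave -0.17 (adjusted p = 0.738), and the mean of its probes -0.71 (adjusted p = 0.138). Kif11 passed as well, but its probe was above background in the obstructed kidneys only, so the size of its difference has no measured level on the lung side. For the other 23 genes, Cdk1 (0.82 ± 0.49, adjusted p = 0.197) and Tpx2 (0.67 ± 0.41, adjusted p = 0.209) among them, a difference between the effects was not detected with the brightest probe. A dimmer Ccnd1 probe passed at 2.02 (adjusted p = 0.00189) and a second Rrm1 probe at -0.99 (adjusted p = 0.0285).

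These calls moved with single kidneys and with the scaling. Without the second obstructed kidney Mcm4 was at -0.50, Mcm6 at -0.91 and Cenpa at -0.57 (adjusted p = 0.0802, 0.106 and 0.214), and without the first healthy kidney Mcm6 was at -1.11 (adjusted p = 0.0506). Cenpa also lost its call, at -1.06 to -1.30, without the first or second healthy lung, any of the bleomycin lungs, or the first or the third healthy kidney. Calls were also gained without the second obstructed kidney, with a larger effect in the lung: Cdk1 (1.39), Aurkb (1.16), Tpx2 (1.32) and Cdca3 (1.23, also 1.08 without the second healthy lung). Without the first obstructed kidney, 8 other genes passed with a larger effect in the kidney, from Rrm1 at -0.75 to Cdca8 at -1.51. Cdc20 passed at -1.56 without the second and Nusap1 at -1.34 without the third healthy kidney. With the deposited matrix values, in which the median of all genes was 0.73, 11 members were higher and 1 lower, so which members passed depends on the scaling. Tyms (3.13) and Stmn1 (-1.21) passed there too, while Mcm4 (-0.04), Mcm6 (-0.35), Kif11 (-0.26) and Cenpa (-0.53) kept their sign and did not pass.

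The obstruction effect in the kidney was also set against the obstruction effect in the lung, which asks whether the response was larger in the obstructed organ. It was larger in the kidney for 19 of the 29 genes and smaller for 0 (also 0 at an unadjusted p under 0.05), against 16.6% and 11% of all tested genes. At an unadjusted p under 0.05 (limma), the difference was positive for 2653 of all 11648 tested genes and negative for 1941. The 19 were 13 of 16 mitosis genes, 5 of 10 replication genes and Stmn1. Mcm6 gave 3.07 ± 0.39 (limma, adjusted p = 0.000206), Cdk1 2.81 ± 0.49 and Birc5 2.49 ± 0.46. Plk1, Tpx2 and Cdca3 were the mitosis genes that did not pass. Probes disagreed for some genes: the other Mcm7 probe gave -0.41 (adjusted p = 0.377), and with the mean of their probes Mcm7 was at 0.33 (adjusted p = 0.294) and Bub1b at 1.15 (adjusted p = 0.0502). Aurkb, Bub1b, Cdca8 and Kif11 were at background in healthy kidney, so the sizes of their differences are not measured ones. Without the second obstructed kidney the calls of Mcm4 (0.60), Mcm7 (1.06), Aurka (1.18) and Cdc20 (1.57) were lost (adjusted p = 0.066, 0.0601, 0.0581 and 0.0995), and without the first healthy lung that of Mcm7 (0.98, adjusted p = 0.0517). Without the first obstructed kidney Mcm2 (1.08), Plk1 (1.73), Tpx2 (1.12), Cdca3 (1.44) and Ccne1 (1.23) passed as well, as did Mcm3 (1.24) without the second healthy lung and Rrm2 (1.52) without the second healthy kidney. Both organs of the obstructed mice carried the Xist pattern described above.

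The healthy organs differed as well. In healthy kidney against healthy lung 2 of the 29 genes were higher and 10 lower, with a median of -0.24, against -0.14 over all genes. Among all tested genes 29.8% were higher and 36.9% lower. Tyms was higher in kidney by 1.55 ± 0.23 (limma, adjusted p = 7.25e-05), and its other probe by 0.65 (adjusted p = 0.0129), and Cdca3 was higher by 0.95 ± 0.27. Mcm4 (-1.42 ± 0.17), Mcm6 (-1.45 ± 0.26), Rrm1 (-1.01 ± 0.18), Cenpa (-1.69 ± 0.30), Stmn1 (-0.95 ± 0.27), Mcm5 (-0.65 ± 0.25), Prc1 (-0.83 ± 0.31), Cdc20 (-0.99 ± 0.37) and Nusap1 (-0.89 ± 0.30) were lower in kidney. Mcm3 was the tenth gene called lower, at background in the healthy kidneys and with no size that can be given. The other Cdc20 probes gave 0.17, -0.02 and 0.00, and the mean of its probes -0.21 (adjusted p = 0.415), so this call rests on 1 probe. The other Cdca3 probe gave 0.06 (adjusted p = 0.82). With the deposited matrix values, in which the median of all genes was 0.32, 6 members were higher and 4 lower.

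The calls of Mcm3, Mcm5, Prc1, Cdc20 and Nusap1 depended on single mice. Prc1 was lost without any 1 of 5 samples (-0.69 to -0.86, adjusted p = 0.0568 to 0.104), all but the second healthy kidney. Mcm3 was lost without the first or the third sample of either organ, and Cdc20 without the first or second healthy lung or the first or the third healthy kidney (-0.51 to -0.99). Mcm5 was lost without the second healthy lung or the first or the third healthy kidney (-0.51 to -0.67), and Nusap1 without the first healthy kidney (-0.54, adjusted p = 0.0866). Bub1b passed without the first healthy lung (-0.81, adjusted p = 0.03).

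Other genes of the same pathways were read from longer lists. In bleomycin lung 28 of 35 measured mitosis genes outside the list rose and 2 fell, with a median of 1.10. Only 16 of the 35 had a signal above background in at least 1 sample of both groups. Of these 11 rose and 2 fell, beside 21.3% higher and 21.8% lower among all tested genes. Ckap2, at background in healthy lung, was at least 3.38-fold higher, Mad2l1 of the spindle checkpoint rose by 1.83 ± 0.18 and Gtse1 by 2.46 ± 0.26, while Spc24 of the kinetochore fell by 1.22 and Bub3 by 0.85. Of 34 other replication genes 18 rose and 4 fell, with a median of 0.44. Thymidine kinase Tk1 (2.06 ± 0.23) and the chromatin factor Uhrf1 (1.83 ± 0.23) had the smallest adjusted p. With a signal in both groups there were 33 of the 34, of which 17 rose and 4 fell. In obstructed kidney 24 of 35 other mitosis genes rose and 0 fell, with a median of 0.88. They were led by Incenp of the passenger complex (at least 2.65-fold) and Cdca2 (at least 2.19-fold), both at background in healthy kidney. Only 9 of the 35 had a signal above background in at least 1 sample of both groups. Of these 6 rose and 0 fell, beside 26% higher and 16.9% lower among all tested genes. Of 34 other replication genes 14 rose and 3 fell, with a median of 0.61, among them DNA ligase Lig1 (2.60 ± 0.21) and Uhrf1 (2.70 ± 0.26). With a signal in both groups there were 28 of the 34, of which 11 rose and 3 fell. In lung of obstructed mice 1 other mitosis gene rose and 1 fell, and 2 other replication genes rose and 2 fell. Among all tested genes the shares there were 5.81% higher and 5.05% lower. In healthy kidney against healthy lung 1 other mitosis gene was higher and 10 lower, and 7 other replication genes were higher and 15 lower, beside 29.8% higher and 36.9% lower among all tested genes.

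Genes that drive or restrain the cycle are given by their counts, to be read beside the shares of all tested genes, which were 21.3% higher and 21.8% lower in bleomycin lung, 26% and 16.9% in obstructed kidney, 5.81% and 5.05% in lung of obstructed mice and 29.8% and 36.9% in healthy kidney against healthy lung. Of 15 measured genes listed for the control of G1 and S phase, 6 rose and 2 fell in bleomycin lung, and 4 rose and 1 fell in obstructed kidney. In lung of obstructed mice 2 rose and 0 fell, and 4 were higher and 7 lower in healthy kidney against healthy lung. The list mixes cyclins, kinases and transcription factors, not all of which drive the cycle. Those that rose in obstructed kidney were Cdk2, E2f4, Mybl2 and E2f1, and in lung of obstructed mice E2f4 and Cdk2. Foxm1, a transcription factor of mitotic genes, rose by 1.84 ± 0.23 in bleomycin lung (limma, adjusted p = 0.000104) and did not pass in obstructed kidney (0.53 ± 0.26, adjusted p = 0.12). Mybl2, another such factor, passed in both, at 1.09 ± 0.25 and 0.86 ± 0.28. The G1 cyclin gene Ccnd2 fell by 1.35 in bleomycin lung (log2, SE 0.27). Of 18 measured genes listed as brakes on the cycle, 5 rose and 2 fell in bleomycin lung, and 9 rose and 2 fell in obstructed kidney. In lung of obstructed mice 2 rose and 0 fell, and 5 were higher and 11 lower in healthy kidney against healthy lung. This list is mixed as well, and not all of its genes only inhibit the cycle. Lin54, which rose by 0.47 ± 0.17 in bleomycin lung (limma, adjusted p = 0.0375), is not a plain inhibitor. Cdkn1a, the p53 target that inhibits cyclin-dependent kinases, rose by 3.67 ± 0.50 in bleomycin lung (12.7-fold, adjusted p = 0.000154) and by 3.46 ± 0.56 in obstructed kidney (11-fold, adjusted p = 0.000388). It differed by 1.42 ± 0.50 in lung of obstructed mice, which did not pass (adjusted p = 0.0852). The rise of mitosis genes and that of Cdkn1a were thus measured in the same organs.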

How the data were processed

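Probe signal intensities and detection p-values of 15 arrays were used as deposited. The submitters' processing notes name GenomeStudio 5.0 for the export, and nothing more of the upstream steps is given. The deposited matrix intensities, linear with the background subtracted and of unstated scaling, were an alternative (floor 16 before log2, under which 47.7% of them lay). The tissue field of 1 healthy kidney names the lung; its title was followed.

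Signals were corrected with neqc (limma 3.58.1, R 4.3.3, offset 16, with negative controls derived from detection p-values), quantile normalized and put on the log2 scale. The annotation gave 1 symbol to 34885 of 45281 probes, several to 18 and none to 10378. Probes above background (detection p under 0.01) in 2 or more samples were kept, and the brightest stood for its gene. A model with 5 group means was fitted with lmFit and eBayes (9 residual, 3.06 prior degrees of freedom). Benjamini-Hochberg adjustment ran over 11648 genes. A group is at background where every detection p is 0.05 or more, and a change against it is a bound set by the lowest signal above background. For the cell type and sex-linked markers, at background means only that no sample of the group had a detection p under 0.01. The fit was tested on simulated data.

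Values of every sample are given, by rule, for the 3 replication and 3 mitosis genes with the smallest adjusted p in each injured organ, and for Cdk1, Top2a, Pcna, the G1 cyclins and Stmn1. The members and lists were chosen with earlier results of these data known. Deviations from group means correlated at -0.12 to 0.18 between organs of the same mouse and at -0.57 to 0.17 between samples sharing a replicate number, so the numbers do not pair mice.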

Additional observations from a re-analysis of the deposited data

Results flagged for a closer look

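These differences between effects passed the test of the difference itself (a contrast of contrasts in limma, adjusted over all genes). For the bleomycin effect in lung minus the obstruction effect in kidney they were 2.27 for Tyms, -0.83 for Mcm4, -1.24 for Mcm6, -1.13 for Kif11, -1.23 for Cenpa and -2.01 for Stmn1, on the log2 scale.

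For the obstruction effect in kidney minus that in lung, the replication genes were Mcm4 at 0.93, Mcm5 at 1.7, Mcm6 at 3.07, Mcm7 at 1.08 and Rrm1 at 1.31. Kinase genes were Cdk1 at 2.81, Aurka at 1.8, Aurkb at 1.38 and Bub1b at 1.84. The spindle and chromosome genes were Top2a at 1.85, Prc1 at 2.42, Kif11 at 1.63, Kif22 at 2.24, Nusap1 at 2.21 and Cenpa at 2.45. The remaining ones were Cdc20 at 1.98, Birc5 at 2.49, Cdca8 at 2.22 and Stmn1 at 1.5. Kif11 was above background in the obstructed kidneys only, and Aurkb, Bub1b and Cdca8 were at background in healthy kidney. Both sets share the healthy and obstructed kidneys, and the healthy lungs.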

How the results depend on the processing

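Of the members called, 19 of 22 in bleomycin lung kept their call in all 20 alternatives, 17 of 21 in obstructed kidney in all 18 (Kif11 was not tested without either obstructed kidney), 5 of 12 between healthy organs in all 19, 2 of 6 (Tyms and Stmn1) in the difference of the injuries in all 25 and 12 of 19 in the difference of the obstruction effects in all 25. In lung of obstructed mice 2 members passed with median scaling, 2 with the deposited matrix values, 2 with only the groups compared and 4 with array weights, against 0. Between healthy organs 7 passed without background correction, against 12, and 12 to 7 when a sample was left out. In the difference of the injuries the matrix values gave 12, of which 11 were higher, against 6 with 1 higher, and leaving out a sample gave 4 to 13 (13 without the first obstructed kidney). With a sample left out, counts were 20 to 23 in bleomycin lung, 18 to 22 in obstructed kidney, 14 to 23 in the difference of the obstruction effects and 0 in lung of obstructed mice. Top2a reversed between healthy organs with the matrix values (0.77 against -0.17). All-gene calls in lung of obstructed mice were 1265, with array weights 2924, without the liver-bearing healthy lung 3 and obstructed-mouse lung 1 344, and 309 to 1270 with a sample left out. Scaling moved the share of calls that were higher: in bleomycin lung from 49.5% to 75.1% with median scaling and 87.1% with the matrix values, in obstructed kidney from 60.6% to 78% and 34.6%, in lung of obstructed mice from 53.5% to 3.29% and 15.9%, between healthy organs from 44.7% to 35.8% and 64.7%, in the difference of the injuries from 39.8% to 84.2% with the matrix values, and in the difference of the obstruction effects from 60% to 90.8% and 46.5%. The median of all genes moved with it, in bleomycin lung to 0.23 and 0.51 and in obstructed kidney to 0.33 and -0.21. Tyms, Cdk1 and Prc1 kept their directions in bleomycin lung under each. The replicate numbers do not pair the mice. With the replicate number as a block, members called were 23 in bleomycin lung, 21 in obstructed kidney, 0 in lung of obstructed mice, 14 between healthy organs, 9 in the difference of the injuries and 20 in that of the obstruction effects. With the mouse as a random block, which ties the organs of 1 animal, they were 22, 21, 0, 12, 6 and 19. Precision is limited by how few arrays there are, and the Pcna and Kif11 probes lay close to background.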
